A study of Mus musculus with 10 samples.

Results

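Lines grown from lung metastases were compared with lines grown from circulating tumour cells (CTC) of the same mouse mammary carcinoma model. The comparison used 6 of the 10 libraries, chosen by the tissue in their labels: CTC lines 1, 3 and 6 and metastasis lines 5, 3 and 7. The carcinoma is 4T1-hHER2, a mouse mammary line of the strain BALB/cfC3H that carries human HER2 and luciferase from a lentivirus. Every derived line descends from it, so both groups come from cells with the insert. Whether each line kept the insert was not tested. Per the labels, both groups came from NOD-SCID-GAMMA (NSG) mice, and both trace back to tumour cells caught in the blood of NSG mice whose fat pad tumours had spread. The age of the mice, and whether a line is 1 clone or a mixed population, are not given in the sources used here. The other 4 libraries, the parental line and primary tumour lines 5, 7 and 8 from fat pads, are used to place the 2 groups and also enter the fit, where they add to the estimate of the spread behind each p.

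A carcinoma cell that reaches the lung has left its tumour, survived in blood, lodged in a small vessel and resumed growth in foreign tissue. CTC are cells on this route, and few of them are thought to found a metastasis. Matrix proteins, adhesion receptors, cell cycle genes and metabolic genes are commonly studied at the step between blood and lung. NSG mice lack T, B and natural killer cells, so adaptive immunity does not act on the cells in this model. The comparison asks what differs between lines from the circulation and lines from the organ they reach.

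The 6 libraries held 79869760 to 96746332 estimated counts each. Expression is given in CPM (counts of a gene scaled to the library's total of named genes), adjusted between libraries, and is compared between lines for 1 gene at a time. Unless stated otherwise, 3 values are listed in the order CTC 1, 3 and 6 or metastasis 5, 3 and 7. Each line has 1 library, so a p-value here reflects the spread among these lines alone, and fewer cells of a kind cannot be told apart from less RNA per cell. Of 17 markers of mammary carcinoma, 14 were tested, and their summed level was 3430 to 7560 CPM in the CTC lines and 2150 to 6940 CPM in the metastasis lines. This list holds Vim, a gene also of mesenchymal cells, which made up much of the sum in most lines, at levels given below. The epithelial cadherin Cdh1 was at 94.2, 77.7 and 150 CPM in the CTC lines and at 88.7, 77.3 and 391 CPM in the metastasis lines. Ptprc, carried by blood cells, was at or below 0.232 CPM in all 6. Of 10 leukocyte markers 3 were tested, with a summed level of 1.72 to 5.92 CPM in the CTC lines and 2.48 to 3.2 CPM in the metastasis lines. Of 14 macrophage markers 7 were tested, and their summed level was 12.8 to 29.1 CPM in the CTC lines and 9.52 to 30.6 CPM in the metastasis lines. Of 19 lung epithelial markers 7 were tested, 5 higher and 2 lower, with a summed level of 93.1 to 172 CPM in the CTC lines and 101 to 161 CPM in the metastasis lines. Most of it was Abca3 (67.7 to 113 CPM in the 6 lines) and Aqp5 (12.3 to 38.7 CPM), while Foxj1 and Sftpb were at 0 in 5 of the 6 lines. Ager, a marker of flat alveolar cells, was at 0.520, 0.619 and 0.244 CPM in the CTC lines and at 1.67, 0.969 and 1.92 CPM in the metastasis lines. It was the 1 marker of the list at an unadjusted p under 0.05, where 1.6% of all genes were higher.

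Of 19936 named genes tested, the quasi-likelihood test of edgeR, adjusted by Benjamini-Hochberg, called 1, or 0.00502% of the genes, and it was lower in the metastasis lines. At an unadjusted p under 0.05 there were 656 genes (3.29%), 319 of them higher (1.6%) and 337 lower (1.69%) in the metastasis lines. With library totals alone as the scaling, 415 were higher and 242 lower, so the split of the 656 depends on the scaling. The levels of the 2 groups did not overlap for 1651 genes (8.28%), 883 with every metastasis line above every CTC line (4.43%) and 768 with every metastasis line below (3.85%). DESeq2 called 28 genes, 14 in each direction, and limma-voom called 1. Leaving out metastasis 5 lowered the 656 to 370, and leaving out metastasis 3 raised it to 1015.

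Pairs of different origin and pairs of the same origin covered much the same range. The closest of the 15 pairs was CTC 3 with metastasis 3, which carry the same number, where 14.7% of the genes differed more than 2-fold and the median difference was 0.26 on the log2 scale without sign. CTC 1 and CTC 3 differed in 17.9% of the genes, but CTC 6 differed from them in 38.5% and 40.7%. Among the metastasis lines the share was 22.6% for lines 5 and 3 and 34.1% and 35.2% for line 7 with them. CTC 6 was closer to metastasis 7 (26.8%) than to either other CTC line. The lines thus fell by likeness into CTC 1, CTC 3, metastasis 3 and metastasis 5 on 1 side and CTC 6 and metastasis 7 on the other, which is not the split by tissue. No test was made of this order.

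**Figure D1:**
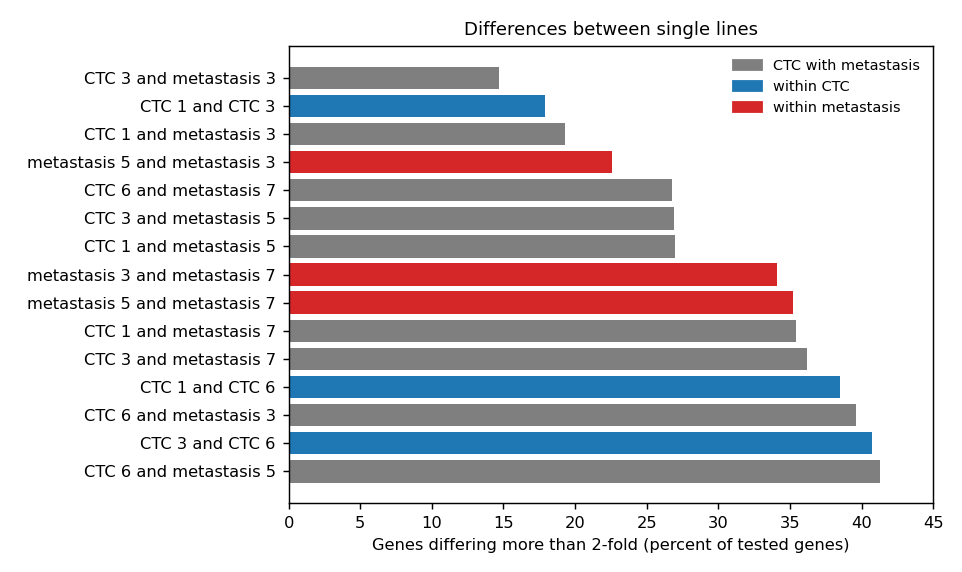
Share of the tested genes that differ more than 2-fold between 2 single lines, for all 15 pairs of the 6 lines, with pairs across the groups in grey and pairs within a group in colour. The bars of the 3 kinds are interleaved, from 14.7% for CTC 3 with metastasis 3 to 41.3% for CTC 6 with metastasis 5.

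Pelo was the 1 gene called in the main fit. It encodes pelota, a factor that recognises ribosomes stalled at the end of a broken or untranslatable messenger RNA and splits them together with a partner GTPase. Pelo stood at 7.79, 10.2 and 8.11 CPM in the CTC lines and at 0.794, 0.629 and 0.573 CPM in the metastasis lines. In counts these are 584, 659 and 532 against 61, 48 and 42, so the gene was read in every line and the groups lie far apart. Pelo fell 13.1-fold (log2 change -3.71, SE 0.35), and its p in the edgeR test was 0.0408 after adjustment over all genes. The parental line (10.2 CPM) and the primary lines (6.68, 7.92 and 9.20 CPM for lines 5, 7 and 8) were at the CTC level. The call was lost without any 1 of the 9 derived lines, with adjusted p of edgeR's test from 0.0767 (without primary 5) to 0.347 (without metastasis 7), while the log2 change stayed between -3.85 and -3.58. With the 6 CTC and metastasis libraries alone it was 0.310. With the line number as a replicate block the adjusted p was 1 as a fixed term in edgeR, with 1 residual degree of freedom, and 0.0150 as a random term in limma-voom.

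Pelo (ENSMUSG00000042275.9) lies at chr13:115088355-115090186 of GRCm38 on the minus strand, inside the span of the integrin gene Itga1. Its exons overlap those of Gm49395 on the same strand and of Gm10734 on the opposite strand, so its counts are uncertain where reads could be given to either. Gm49395 had 175, 160 and 0 counts in the CTC lines and 61, 64 and 1 in the metastasis lines. It had 6 counts in the parental line and 113, 30 and 12 in primary 5, 7 and 8, so its counts overlapped between lines with high and low Pelo. Its part in the Pelo result was not tested. Gm10734 had at most 20 counts in any line. Itga1 itself, the collagen-binding integrin chain, was at 41.6, 51.8 and 5.92 CPM in the CTC lines and at 75.6, 62.6 and 10.4 CPM in the metastasis lines, with overlapping groups. These 3 neighbours were chosen after their values were seen. Reads of Pelo that were counted under an assembled transcript without a gene name would lower its level, and this was not tested.

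Of 24 tested genes of ribosome rescue and messenger RNA quality control, 14 were higher and 10 lower in the metastasis lines, with a median log2 change of 0.04, against 0.00 over all genes tested. Pelo was the 1 gene of the list at an unadjusted p under 0.05, where 1.69% of all genes were lower. Gtpbp2, a GTPase that is related to Hbs1-type partners of pelota, was at 25.3, 38.2 and 66.5 CPM in the CTC lines and at 86.8, 52.7 and 116 CPM in the metastasis lines, which overlap. Ankzf1, which releases nascent chains from stalled ribosomes, was at 13.9, 11.5 and 9.39 CPM and at 17.9, 19.7 and 21.5 CPM, so every metastasis line was above every CTC line without a call (log2 difference 0.76, SE 0.38). Across the 10 libraries, the genes most like Pelo by Pearson correlation of log2 CPM were Phf6 (0.93), Kifc5b (0.898), Jpt2 (0.888), Tubgcp4 (0.878) and Ifi204 (0.858). The points of these correlations share their libraries and were the same lines that gave the call.

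The genes that came next were S100a6 and Kifc5b, both lower in the metastasis lines without passing the test. S100a6 encodes calcyclin, a small calcium-binding protein of the S100 family. It was at 820, 867 and 613 CPM in the CTC lines and at 299, 199 and 217 CPM in the metastasis lines, and the parental line was lower still at 156 CPM. The log2 difference was -1.69 (SE 0.27, adjusted p 1 by edgeR's test). Kifc5b, a kinesin motor gene of the mitotic spindle, was at 36.3, 21.97 and 42.0 CPM in the CTC lines and at 6.62, 10 and 8.33 CPM in the metastasis lines. Its log2 difference was -2.01 (SE 0.33). Kifc5b is a close copy of Kifc1, and reads shared between the 2 make its level uncertain.

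Xpo1, the exporter that carries proteins and RNA out of the nucleus, was also lower in all 3 metastasis lines. It was at 230, 196 and 276 CPM in the CTC lines and at 44.8, 30.3 and 25.6 CPM in the metastasis lines (log2 difference -2.80, SE 0.75). The same low level was seen in the parental line (35.9 CPM) and primary 5 (19.7 CPM), whereas primary 7 and 8 were at 240 and 241 CPM. The counts of Xpo1 thus had 2 levels among the 10 lines, with none between 44.8 and 196 CPM. Reads of Xpo1 that were counted under an assembled transcript without a gene name would lower its level, and this was not tested. Tra2a, a splicing activator, was at 171, 131 and 201 CPM in the CTC lines and at 67.7, 83.0 and 37.3 CPM in the metastasis lines. Cip2a, an inhibitor of protein phosphatase 2A, was at 152, 151 and 109 CPM and at 32.7, 83.4 and 59.1 CPM. In both every metastasis line was below every CTC line. Arhgap19, a GTPase-activating protein gene, the ciliary gene Cep290, the adaptor gene Lat2 and the zinc finger gene Zkscan3 are further protein-coding genes of lowest p, with log2 differences of -2.25 (Cep290) to -1.28 (Zkscan3). None passed.

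In the other direction, Scaf11 had the smallest p. It encodes a splicing-associated protein with an arginine-serine rich region. It was at 25.3, 39.2 and 38.6 CPM in the CTC lines and at 125, 113 and 87.8 CPM in the metastasis lines, with a log2 difference of 1.66 (SE 0.29, adjusted p 1 by edgeR's test). Slc45a4, a solute carrier gene, was at 0.787, 1.36 and 0.229 CPM in the CTC lines and at 53.2, 15.95 and 21.2 CPM in the metastasis lines (log2 difference 5.24, SE 1.49). Slc45a4 was close to off in the CTC lines and also low in primary 8, at 0.0825 CPM.

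B4galnt4, a transferase that adds N-acetylgalactosamine to glycans, was at 2.67, 1.61 and 1.78 CPM in the CTC lines and at 13.4, 4.74 and 10.7 CPM in the metastasis lines. Porcn, the acyltransferase that lipidates Wnt ligands so that they can be secreted, was at 1.91, 3.30 and 3.43 CPM and at 20.9, 9.81 and 5.36 CPM. Pdgfc, a growth factor gene of the platelet-derived family, was at 3.29, 8.70 and 11.5 CPM and at 91.0, 20.3 and 26.8 CPM. For Porcn and Pdgfc the highest value was that of metastasis 5. Atf6b, an endoplasmic reticulum stress sensor, was at 16.4, 20.4 and 51.4 CPM in the CTC lines and at 138, 92.9 and 67.5 CPM in the metastasis lines. The primary lines were near the metastasis lines for Atf6b (55.9 to 112 CPM) but near the CTC lines for B4galnt4 (2.38 to 3.14 CPM) and Porcn (3.68 to 4.03 CPM). Other genes of lowest p were Pced1b, P4ha2, Asb8, Myl6b, Trim26 and Mpdz, with log2 differences of 0.90 (Trim26) to 1.96 (Mpdz). DESeq2 called 11 of the 30 genes of lowest p, 7 higher and 4 lower.

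**Figure D2:**
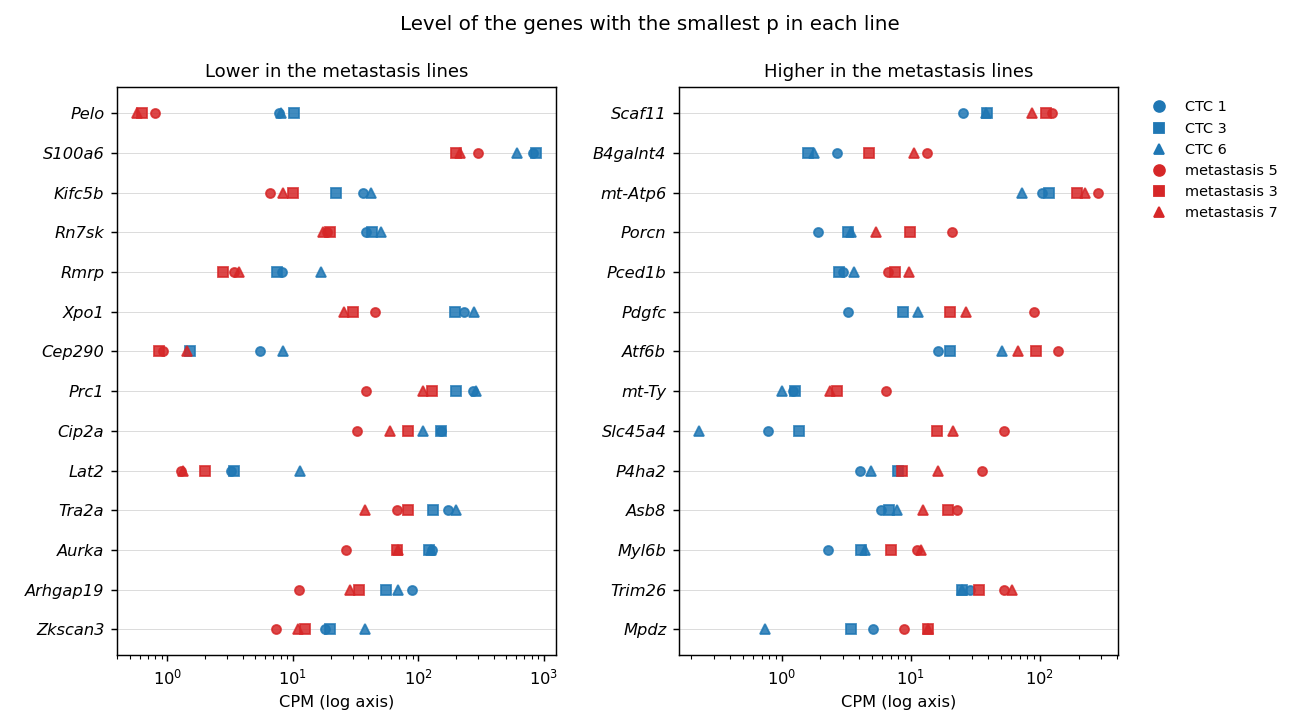
Level in CPM (log axis) of named genes with the smallest p in each direction, with CTC lines in blue and metastasis lines in red and 1 symbol per line. The groups do not overlap for any of these genes because they were selected so, and Pelo is the 1 gene that passed the test (8.70 ± 1.31 CPM in CTC and 0.665 ± 0.115 CPM in metastasis lines, SD, n = 3).

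Genes of mitosis were lower in the metastasis lines as a list. Of 40 tested members, 39 were lower and 1 was higher, with a median log2 change of -1.14, and 20 were lower at an unadjusted p under 0.05, where 1.69% of all genes were. None passed adjustment. For 16 of the 40 every metastasis line was below every CTC line, as for 3.85% of all genes. Aurka, a kinase of the spindle poles, was at 128, 122 and 127 CPM in the CTC lines and at 26.5, 67.8 and 69.2 CPM in the metastasis lines. Plk1, a kinase that drives entry into and passage through mitosis, was at 127, 114 and 106 CPM and at 24.9, 66.3 and 53.8 CPM. In both, metastasis 5 was the lowest line, and the 3 CTC lines were close together. Prc1, which bundles microtubules of the spindle midzone, was at 271, 200 and 289 CPM and at 38.0, 128 and 109 CPM, and Hmmr, a spindle and hyaluronan-binding protein gene, at 143, 122 and 92.9 CPM and at 25.6, 77.8 and 30.1 CPM. Ube2c, the 1 member that was higher and named here for that reason, was at 212, 8.24 and 33.8 CPM and at 60.7, 150 and 63.7 CPM.

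The mitosis list differed between lines within the groups as well. Its mean log2 CPM was 6.97, 6.80 and 6.30 in CTC lines 1, 3 and 6 and 4.59, 6.33 and 5.42 in metastasis lines 5, 3 and 7. Metastasis 3 was thus at the level of CTC 6, and for that pair the median member was 0.09 higher in the metastasis line, with 21 of 40 higher. In the other 8 pairs of a metastasis and a CTC line the median was between -2.44 and -0.59. The primary lines, at 6.76, 7.16 and 6.57, were on the CTC side, while the parental line was at 5.62. The count of 20 became 7 without CTC 1 or without CTC 3, 8 without metastasis 5 or without metastasis 7, 31 without CTC 6 and 34 without metastasis 3. The median ran from -1.78 to -0.82 over these lines and was beyond 1.5 times its value without metastasis 3.

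Promoters of mitotic genes are known for 2 short elements, CCAAT boxes bound by the factor NF-Y and the cell cycle genes homology region, TTTGAA or a variant, bound by complexes that hold these genes off in resting cells. The RefSeq promoter windows of GRCm38.p6, 300 bases around each annotated start, were searched for CCAAT and TTTGAA on both strands. Matches of the 2 motifs can share bases and were counted separately. Mitotic genes are known for these motifs, so a high share describes the list and has no bearing on its change in these lines. Of 40 members, 33 matched an entry, with 35 windows. CCAAT was present in 27 of the 35 windows (77.1%) and TTTGAA in 28 (80%), whereas of 32851 windows of all genes 37.4% held CCAAT and 17.9% held TTTGAA. For the DNA replication list the shares were 57.1% and 11.4% of 35 windows. The windows of the 5 members of lowest p are shown so that the position of the 2 motifs around the start can be seen, with both motifs on either strand in capitals. They lie at chr17:26916841-26917140 (Kifc5b, plus strand), chr7:80294201-80294500 (Prc1, plus), chr2:172370521-172370820 (Aurka, minus), chr11:40733388-40733687 (Hmmr, minus) and chr7:122159185-122159484 (Plk1, plus), and are written 5′ to 3′ along the gene.
Kifc5b: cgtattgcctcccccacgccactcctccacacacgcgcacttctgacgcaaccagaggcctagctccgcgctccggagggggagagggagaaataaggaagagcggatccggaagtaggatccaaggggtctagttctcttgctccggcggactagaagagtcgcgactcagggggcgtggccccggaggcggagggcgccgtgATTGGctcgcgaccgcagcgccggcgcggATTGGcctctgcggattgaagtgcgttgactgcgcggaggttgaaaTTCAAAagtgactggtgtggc
Prc1: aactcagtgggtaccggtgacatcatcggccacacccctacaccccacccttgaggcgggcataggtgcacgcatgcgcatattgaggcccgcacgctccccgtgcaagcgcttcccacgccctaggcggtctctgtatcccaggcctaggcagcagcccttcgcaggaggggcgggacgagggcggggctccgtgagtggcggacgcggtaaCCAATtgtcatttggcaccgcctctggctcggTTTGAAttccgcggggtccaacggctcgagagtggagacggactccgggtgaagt
Aurka: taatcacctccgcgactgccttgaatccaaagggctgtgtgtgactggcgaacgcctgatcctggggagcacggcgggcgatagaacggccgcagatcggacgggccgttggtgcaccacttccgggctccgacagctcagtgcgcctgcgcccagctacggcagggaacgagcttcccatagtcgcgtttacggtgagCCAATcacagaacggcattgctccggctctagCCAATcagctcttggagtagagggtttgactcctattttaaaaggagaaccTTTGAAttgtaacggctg
Hmmr: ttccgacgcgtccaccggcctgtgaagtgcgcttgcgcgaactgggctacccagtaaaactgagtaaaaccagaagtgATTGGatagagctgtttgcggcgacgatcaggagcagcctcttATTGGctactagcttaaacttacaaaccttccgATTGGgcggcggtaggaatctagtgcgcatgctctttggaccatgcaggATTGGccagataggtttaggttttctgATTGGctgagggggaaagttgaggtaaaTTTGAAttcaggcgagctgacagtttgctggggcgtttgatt
Plk1: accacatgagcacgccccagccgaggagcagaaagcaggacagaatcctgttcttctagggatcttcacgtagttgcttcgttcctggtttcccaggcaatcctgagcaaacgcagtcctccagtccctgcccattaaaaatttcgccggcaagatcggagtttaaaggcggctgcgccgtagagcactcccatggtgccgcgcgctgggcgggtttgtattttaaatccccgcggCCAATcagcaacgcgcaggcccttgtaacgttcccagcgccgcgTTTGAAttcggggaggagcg
Each of the 5 windows holds 1 TTTGAA, which in Kifc5b is read on the other strand as TTCAAA. The number of CCAAT matches is 2 in Kifc5b and Aurka, 1 in Prc1 and Plk1 and 5 in Hmmr, all 5 of them on the other strand as ATTGG. A match describes the sequence and is no evidence of binding in these lines.

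DNA replication genes showed a smaller difference of the same sign. Of 40 tested, 39 were lower, with a median log2 change of -0.75, but 2 were lower at an unadjusted p under 0.05 (1.69% of all genes), and none passed. Gins3, a part of the replicative helicase, was at 24.2, 30.9 and 28.7 CPM in the CTC lines and at 9.33, 21.9 and 10.5 CPM in the metastasis lines. Rrm1, the large subunit of the enzyme that makes deoxynucleotides, was at 289, 234 and 242 CPM and at 56.4, 169 and 176 CPM. The line that stood out was metastasis 5, with a mean log2 CPM of 4.12 for the list against 5.83 and 5.17 in metastasis 3 and 7 and 6.20, 6.22 and 5.23 in the CTC lines. Without metastasis 5 the median was -0.43 and without metastasis 3 it was -1.14. The count of 2 became 11 without CTC 6 and 15 without metastasis 3, 0 without CTC 3 or metastasis 5, and 1 without CTC 1 or any 1 primary line.

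Histone genes listed as made in S phase were lower in every case. Messages of such genes mostly end in a stem-loop in place of a poly-A tail. All 59 histone genes tested were lower in the metastasis lines, with a median log2 change of -1.67. At an unadjusted p under 0.05, 40 were lower, where 1.69% of all genes were. For 42 of 59 every metastasis line was below every CTC line, against 3.85% of all genes. None passed adjustment in edgeR's test, while DESeq2 called 4 of them lower. Their levels were low: together they took 0.0178%, 0.0104% and 0.00848% of named counts in the CTC lines and 0.00485%, 0.0101% and 0.00311% in the metastasis lines (exact permutation test, two-sided, p = 0.2, where 0.1 is the smallest possible). In this share metastasis 3 was above CTC 6, so the groups overlapped. Hist1h2bc, an H2B gene, was at 12.4, 10.9 and 6.74 CPM in the CTC lines and at 3.79, 8.17 and 2.26 CPM in the metastasis lines. Hist2h2be, another H2B gene, was at 7.87, 6.89 and 5.76 CPM and at 3.19, 5.24 and 2.63 CPM. Metastasis 3 was the highest metastasis line in both. Whether counts of Hist1h2bc and Hist2h2be came from messages with or without a poly-A tail was not tested. The median was negative in all 9 pairs of lines, from -2.55 to -0.72. The count of 40 became 20 without metastasis 5, 22 without metastasis 7 and 25 without CTC 1. Histone genes of a kind are near-identical, so that reads can be split between them.

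The labels name poly-A RNA as the molecule and a total RNA kit for the libraries, so the capture of transcripts without a tail is not settled by them. Of 24 small structural RNAs without a poly-A tail, 16 were lower and 8 higher in the metastasis lines, with a median log2 change of -0.59, which was -0.12 without CTC 6 and -1.05 without metastasis 7. Rn7sk, the RNA that holds the elongation factor P-TEFb inactive, was at 38.0, 42.5 and 50.7 CPM in the CTC lines and at 18.8, 19.9 and 17.5 CPM in the metastasis lines. Rmrp, the RNA of a ribosomal RNA processing enzyme, was at 8.16, 7.43 and 16.8 CPM and at 3.37, 2.76 and 3.75 CPM. Rn7s1, a signal recognition particle RNA, was at 28.7, 30.0 and 55.0 CPM and at 18.2, 18.4 and 19.8 CPM. For Rn7sk and Rn7s1 the primary lines (11.8 to 21.2 CPM and 14.7 to 20.5 CPM) and the parental line (22.9 and 22.5 CPM) were near the metastasis level, so here the CTC lines are the group that stands apart. The part of RNA capture in the histone and small RNA differences was not tested.

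Genes encoded by mitochondrial DNA, which supply core subunits of the respiratory chain, were higher in the metastasis lines. All 13 tested protein genes were higher, with a median log2 change of 0.59, and 3 were higher at an unadjusted p under 0.05, where 1.6% of all genes were. They took 2.12%, 1.92% and 1.01% of named counts in the CTC lines and 3.02%, 2.24% and 2.43% in the metastasis lines, so the groups did not overlap in this share (exact permutation test, two-sided, p = 0.1, the smallest possible). Their summed level in adjusted CPM did overlap, at 21900, 18800 and 10600 in the CTC lines and 29600, 21400 and 23000 in the metastasis lines. The mean log2 CPM of the members, also adjusted, did not overlap, at 9.38, 9.11 and 8.05 against 9.85, 9.41 and 9.5. The separation thus depends on the scaling and on how the members are combined. mt-Atp6, a subunit of ATP synthase, was at 104, 118 and 73.6 CPM in the CTC lines and at 283, 195 and 223 CPM in the metastasis lines (log2 difference 1.24, SE 0.29, adjusted p 1 by edgeR's test). mt-Nd5, a complex I subunit, was at 1356, 1554 and 753 CPM and at 2718, 1854 and 1913 CPM. mt-Co1, the catalytic subunit of complex IV, was at 6800, 5573 and 3544 CPM and at 9211, 6382 and 7758 CPM, which overlap. CTC 6 was the lowest line in all 3. By pairs, the median was 1.23 to 1.70 against CTC 6 but -0.01 for metastasis 3 with CTC 1, where 6 of 13 were higher. Without CTC 6 the median was 0.34. The count of 3 became 6 without CTC 1 and 1 without metastasis 5. The mitochondrial transfer RNA gene mt-Ty was at 1.23, 1.27 and 1.01 CPM and at 6.43, 2.71 and 2.36 CPM. mt-Atp6 overlaps mt-Atp8 and mt-Co3, so its level is uncertain where reads could be given to more than 1 of them. Gm29216, a pseudogene on chromosome 1 among the abundant genes of low p, was at 917, 747 and 532 CPM and at 1348, 923 and 1115 CPM. Whether Gm29216 shares reads with mitochondrial genes was not tested.

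Nuclear genes of the same complexes did not share this direction. In the nuclear oxidative phosphorylation list 28 of 33 were lower and 5 higher, with a median log2 change of -0.17 and none at an unadjusted p under 0.05. That median was -0.02 without CTC 6, -0.03 without metastasis 3, -0.11 without metastasis 5 and -0.33 without CTC 3 or metastasis 7. Of 23 genes that copy, transcribe or process mitochondrial RNA, 11 were higher and 12 lower (median -0.03). Cytosolic ribosomal protein genes were mostly lower, 82 of 87 with a median of -0.26, but the median was -0.02 without CTC 6, the line in which these genes were highest, and -0.40 without CTC 3. Rps7, of the small subunit, was at 1119, 1034 and 1488 CPM in the CTC lines and at 723, 982 and 609 CPM in the metastasis lines. Lars2, the leucyl-tRNA synthetase of mitochondria, was at 2544, 1957 and 3760 CPM and at 1630, 1488 and 615 CPM, with metastasis 7 the lowest. Whether reads of other RNA were counted under Lars2 was not tested.

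**Figure D3:**
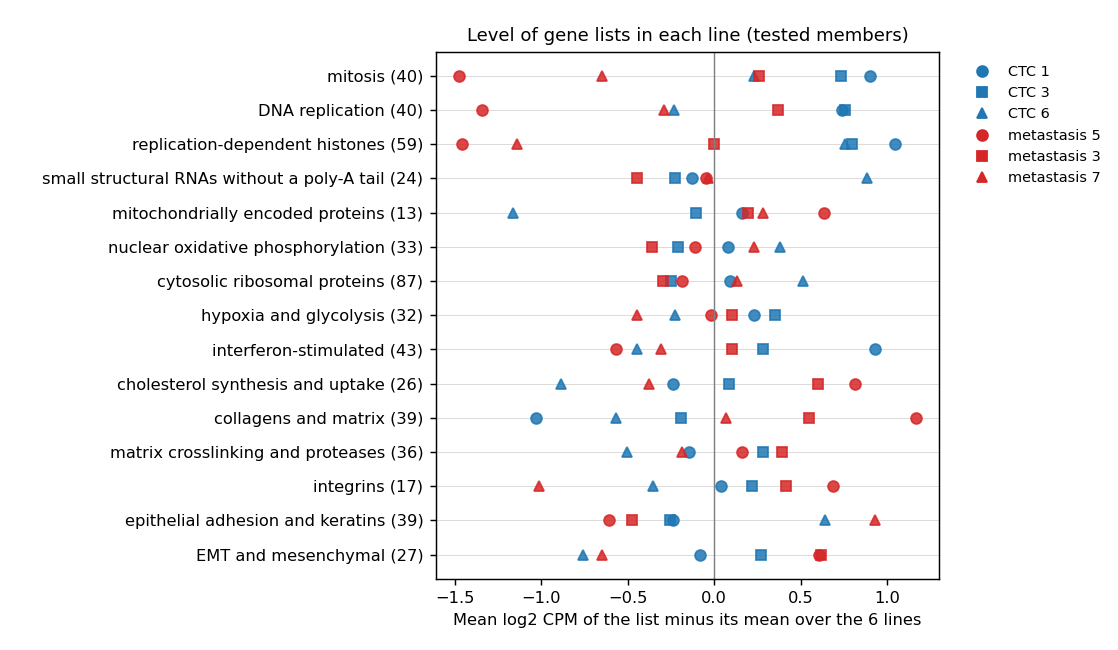
Mean log2 CPM of the tested members of 15 gene lists in each line, minus the mean over the 6 lines, with the number of members in brackets, CTC lines in blue and metastasis lines in red. The groups lie apart in this mean for the histones (CTC 0.04, -0.21 and -0.25, metastasis -2.47, -1.01 and -2.15 before centring), though not in their share of counts. They also lie apart for collagens and matrix (CTC 2.16, 3.0 and 2.62, metastasis 4.36, 3.74 and 3.26). For mitochondrially encoded proteins they lie narrowly apart (CTC 9.38, 9.11 and 8.05, metastasis 9.85, 9.41 and 9.5). For mitosis, metastasis 3 sits beside CTC 6.

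Collagens and other matrix genes were mostly higher in the metastasis lines. Of 39 tested, 33 were higher and 6 lower, with a median log2 change of 1.02. At an unadjusted p under 0.05, 6 were higher, where 1.6% of all genes were. For 8 every metastasis line was above every CTC line, against 4.43% of all genes, and none passed. Fn1, fibronectin, was the most abundant of them, at 1170, 2582 and 3150 CPM in the CTC lines and at 6753, 3991 and 3217 CPM in the metastasis lines. The lowest metastasis line and the highest CTC line were thus close. Ccn1 and Ccn2 encode matricellular proteins that are targets of the YAP pathway. Ccn1 was at 79.5, 53.1 and 126 CPM and at 501, 138 and 189 CPM, and Ccn2 at 29.1, 117 and 31.7 CPM and at 406, 159 and 66.0 CPM. Col6a2 was at 0.187, 2.68 and 1.10 CPM and at 20.4, 4.86 and 2.89 CPM. Metastasis 5 was the highest line for all 4 genes, and without it the list's median was 0.40. In the 9 pairs of lines the median ran from -0.46 (metastasis 7 with CTC 3) to 2.25 (metastasis 5 with CTC 1). The count of 6 became 11 without primary 5, 10 without CTC 3 and 10 without metastasis 7.

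The matrix genes of lowest p were fibrillar collagens and biglycan close to the floor, and they are named here after their values were seen. Bgn had 0 counts in the 3 CTC lines and 19, 64 and 113 in the metastasis lines, at least 59.6-fold higher against a floor of 3 counts over the CTC group. DESeq2 called Bgn, which edgeR did not. More genes had at least 10 counts in every metastasis line (16537, 16775 and 16476) than in the CTC lines (16088, 16072 and 16009), and the part of this in genes at 0 was not tested. Col5a2 had 0 counts in the CTC lines and 8, 40 and 83 in the metastasis lines, and Col3a1 had 0 and 25, 6 and 15, at least 39.9-fold and 13.8-fold higher on that floor. Col1a2 had 3, 3 and 6 counts against 13, 48 and 88, and Col1a1 had 0, 23 and 8 against 160, 76 and 116. Metastasis 7 held the most Bgn, Col5a2 and Col1a2, although it was the lowest metastasis line for Ccn2 and Col6a2. Col1a1, Col1a2 and Col3a1 are also markers of fibroblasts, a cell type that a line grown from tissue could hold. Of 13 fibroblast markers 10 were tested, 7 higher and 3 lower, with 3 higher at an unadjusted p under 0.05 (1.6% of all genes) and a median log2 change of 2.86 (2.33 with genes at 0 in the CTC lines set to their bound, and 1.76 without metastasis 5). Their summed level was 213 to 463 CPM in the CTC lines and 77.2 to 429 CPM in the metastasis lines, nearly all of it Gsn and Pdgfra. Dcn, decorin, was at 1.59, 0.852 and 0.610 CPM and at 12.4, 3.68 and 0.573 CPM. The part of other cells in the matrix result was not tested.

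Enzymes that modify or cut matrix were split, with 17 of 36 higher and 19 lower (median log2 change -0.01), and 5 higher (1.6% of all genes) and none lower at an unadjusted p under 0.05. DESeq2 called 1 of them, Timp3, higher. P4ha2, which hydroxylates collagen, was at 4.04, 8.01 and 4.94 CPM in the CTC lines and at 35.6, 8.58 and 16.4 CPM in the metastasis lines. Mmp9, a gelatinase, was at 14.6, 27.1 and 20.5 CPM and at 87.7, 30.5 and 34.7 CPM. In both the metastasis lines were above all CTC lines with metastasis 5 far above the rest. The count of 5 became 2 without CTC 1 and 3 without CTC 3 or without metastasis 5. Among integrins, the receptors of matrix, 9 of 17 were higher and 8 lower (median 0.15, and -0.06 without metastasis 3). Itgb5, a vitronectin receptor chain, was at 78.0, 147 and 165 CPM and at 412, 188 and 214 CPM, and Itgb7, a chain of leukocyte homing receptors, was at 27.9, 37.3 and 67.5 CPM and at 3.94, 17.8 and 9.60 CPM. The list was lower in metastasis 7 than in CTC 1 and 3 (medians -1.36 and -1.41) and higher in metastasis 5 (0.75 and 0.55).

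Markers of the epithelial to mesenchymal transition were split in direction. Of 27 mesenchymal genes 16 were higher and 11 lower (median log2 change 0.12). At an unadjusted p under 0.05 there were 4 higher, where 1.6% of all genes were, and 0 lower, and the same number, 4, had every metastasis line above every CTC line (4.43% of all genes). Among keratins and epithelial adhesion genes 20 of 39 were lower and 19 higher (median -0.14), with none of these at an unadjusted p under 0.05. Leaving out 1 line changed the sign of both medians: the mesenchymal one ran from -0.08 (without metastasis 3) to 0.57 (without CTC 3), and the epithelial one from -0.65 (without metastasis 7) to 0.13 (without CTC 6). Tgfb2, a ligand that can induce the transition, was at 14.8, 19.1 and 19.3 CPM in the CTC lines and at 41.5, 31.9 and 20.1 CPM in the metastasis lines. Vim, vimentin, was at 4750, 4485 and 1443 CPM and at 2015, 3439 and 584 CPM, lowest in CTC 6 and metastasis 7 within each group. Krt7, a keratin of simple epithelia, was at 233, 276 and 301 CPM and at 73.8, 242 and 115 CPM. The epithelial list was highest in CTC 6 (3.61) and metastasis 7 (3.90), as mean log2 CPM, against 2.36 to 2.73 in the other 4 lines.

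Genes of cholesterol synthesis and uptake were mostly higher in the metastasis lines, 24 of 26 with a median log2 change of 0.56, but 2 were higher at an unadjusted p under 0.05 (1.6% of all genes) and none passed. Dhcr7, the last enzyme of the pathway, was at 1.80, 7.57 and 1.19 CPM in the CTC lines and at 42.7, 45.3 and 14.9 CPM in the metastasis lines (log2 difference 3.28, SE 1.06). Mvd, which makes isopentenyl diphosphate, was at 8.57, 9.88 and 10.03 CPM and at 34.7, 16.7 and 17.3 CPM, and Hsd17b7, a sterol reductase, at 5.20, 11.5 and 1.80 CPM and at 28.5, 23.1 and 12.5 CPM. All 3 had every metastasis line above every CTC line. The list as a whole did not: metastasis 7 was below CTC 1 and CTC 3 in the median member (-0.21 and -0.46). The median of the list was 0.32 without metastasis 5, and the count of 2 became 1 without CTC 1 or metastasis 5 and 4 without metastasis 7. Of 21 fatty acid synthesis genes 14 were higher and 7 lower (median 0.13).

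Glycolytic and hypoxia genes were mostly lower, 24 of 32 with a median log2 change of -0.32 and 3 lower at an unadjusted p under 0.05 (1.69% of all genes), which became 1 without metastasis 5. By pairs, the median was -0.58 to -0.14 against CTC 1 or CTC 3. Against CTC 6 it was 0.08, 0.33 and -0.27 for metastasis 5, 3 and 7. Aldoc, 1 of the 8 higher members, was at 16.6, 11.9 and 2.87 CPM in the CTC lines and at 54.5, 17.7 and 11.1 CPM in the metastasis lines, which overlap. Pkm, pyruvate kinase, was at 2852, 2908 and 2902 CPM in the CTC lines and at 1477, 1855 and 2056 CPM in the metastasis lines (log2 difference -0.69, SE 0.21). Eno1, enolase, was at 1658, 1838 and 2170 CPM and at 1193, 1334 and 1085 CPM, and Gapdh at 874, 820 and 879 CPM and at 549, 622 and 675 CPM. These 3 enzymes of the lower part of glycolysis had no overlap between the groups and little spread among the CTC lines. Pgk1 was at 31.7, 292 and 26.3 CPM and at 3.98, 15.95 and 6.35 CPM, and its log2 difference of -3.74 was -1.73 in the absence of 1 line, CTC 3 (p 0.168 without adjustment in that edgeR fit of 9 libraries). Lgals1, galectin-1, an abundant lectin gene outside the list, was at 4217, 3864 and 4731 CPM and at 2716, 3386 and 2467 CPM.

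Interferon-stimulated genes were lower for 37 of 43 members, with a median log2 change of -0.50 and none at an unadjusted p under 0.05. The median was -0.01 without CTC 1, the line in which the list was highest, and relative to CTC 6 all 3 metastasis lines were higher in the median member (0.24 to 0.68). Ifih1, a sensor of double-stranded RNA, was at 37.5, 23.9 and 25.5 CPM in the CTC lines and at 9.08, 20.2 and 16.4 CPM in the metastasis lines, and Rtp4 was at 18.0, 6.81 and 3.80 CPM and at 3.50, 0.864 and 2.74 CPM. Among 23 genes of MHC class I presentation 17 were higher (median 0.14, and -0.07 without metastasis 5). H2-D1, a class I heavy chain, was at 79.6, 22.4 and 97.2 CPM and at 1255, 22.3 and 79.6 CPM, so 1 line, metastasis 5, set its log2 difference of 2.77, which was -0.38 without that line. Of 26 genes of ERBB signalling and its feedback, 13 were higher and 13 lower. Nrg1, a ligand of ERBB receptors, was at 6.63, 6.63 and 34.3 CPM and at 4.33, 5.16 and 5.73 CPM, and Fosl1, a transcription factor downstream of ERK, at 137, 163 and 302 CPM and at 74.0, 112 and 84.7 CPM. For Nrg1 the log2 difference was -0.38 without CTC 6.

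**Figure D4:**
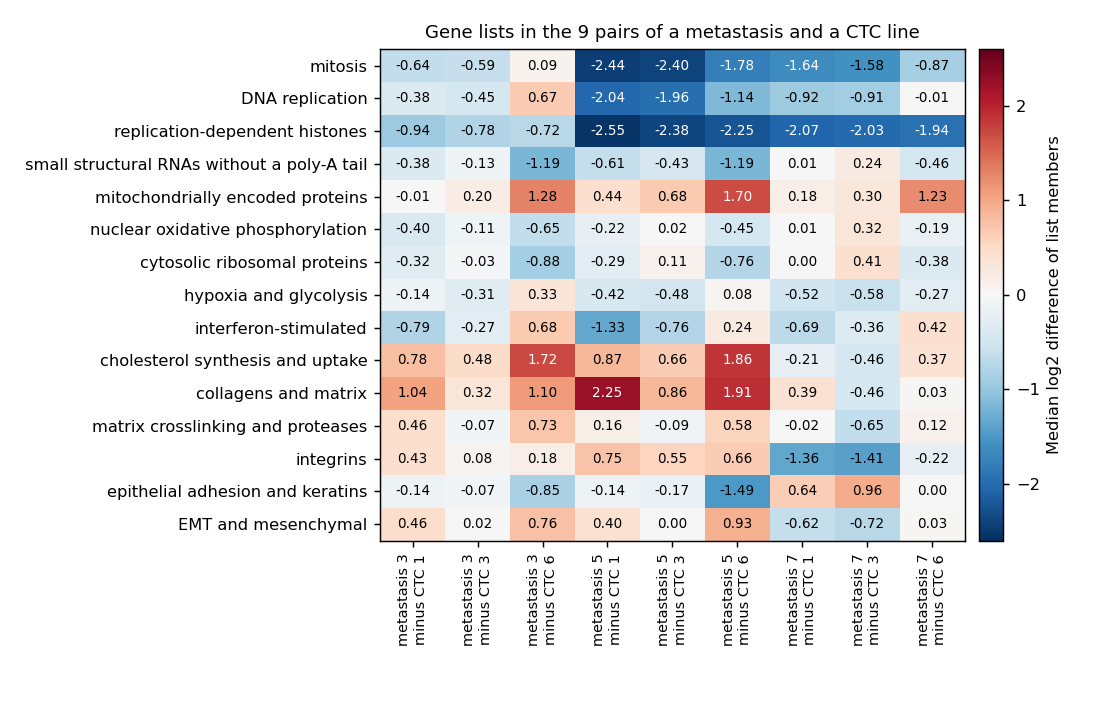
Median log2 difference of the members of 15 gene lists in each of the 9 pairs of a metastasis line and a CTC line, from blue (lower in the metastasis line) to red (higher). The histone list is blue in all 9 pairs (-2.55 to -0.72), whereas cholesterol, matrix and interferon lists change colour with the line.

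At the level of transcripts, edgeR called none of 61244 named transcripts (smallest adjusted p 0.11), with 2670 (4.36%) at an unadjusted p under 0.05, 1435 of them higher (2.34%) and 1235 lower (2.02%) in the metastasis lines. The groups did not overlap for 5957 transcripts (9.73%), 3271 higher (5.34%) and 2686 lower (4.39%). Pelo-201, the transcript of Pelo, had a log2 difference of -3.80 (SE 0.44, adjusted p 0.301 by edgeR's test). Capzb, which encodes the beta subunit of the protein that caps actin filaments, was similar in total, at 224, 265 and 151 CPM in the CTC lines and at 298, 297 and 208 CPM in the metastasis lines, but differed in its transcripts. Capzb-203 was at 51.5, 45.8 and 20.02 CPM and at 3.11, 1.96 and 6.81 CPM (log2 difference -3.30, SE 0.59). Capzb-204 was at 74.9, 81.9 and 28.5 CPM and at 214, 206 and 155 CPM (log2 difference 1.63, SE 0.38). Capzb-204 took 31.4%, 30.1% and 19.3% of the gene's named transcript counts in the CTC lines and 73.3%, 71.2% and 81.0% in the metastasis lines. The share was 93.5% to 96.3% in the primary lines and 37.5% in the parental line. The CTC lines were thus near the parental line, and the metastasis lines lay between them and the primary lines.

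Flna-202, a transcript of the actin crosslinker filamin A, was at 1332, 1554 and 861 CPM in the CTC lines and at 605, 493 and 405 CPM in the metastasis lines (log2 difference -1.32, SE 0.26). In metastasis 3 a second transcript, Flna-201, took 53.8% of the gene, as it did in the primary lines (48.0% to 62.1%), whereas it was at or below 0.245% in the other 5 lines compared here. The total of Flna overlapped between the groups, at 1321, 1531 and 942 CPM and at 681, 1195 and 485 CPM. Scaf11-201, the main transcript of Scaf11, was at 18.0, 27.8 and 18.0 CPM and at 113, 99.9 and 48.9 CPM. Zfp846-203, annotated as a target of nonsense-mediated decay, was at 1.33, 1.97 and 1.11 CPM and at 7.35, 6.53 and 9.93 CPM. Arl2bp-202 was at 2.50, 2.53 and 2.30 CPM and at 16.5, 17.0 and 41.8 CPM. Of 454 genes with a transcript at an unadjusted p under 0.05 and groups that do not overlap, 8 had transcripts in opposite directions, Capzb among them. Shares of transcripts rest on the authors' assembly and its division of reads between overlapping transcripts.

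**Figure D5:**
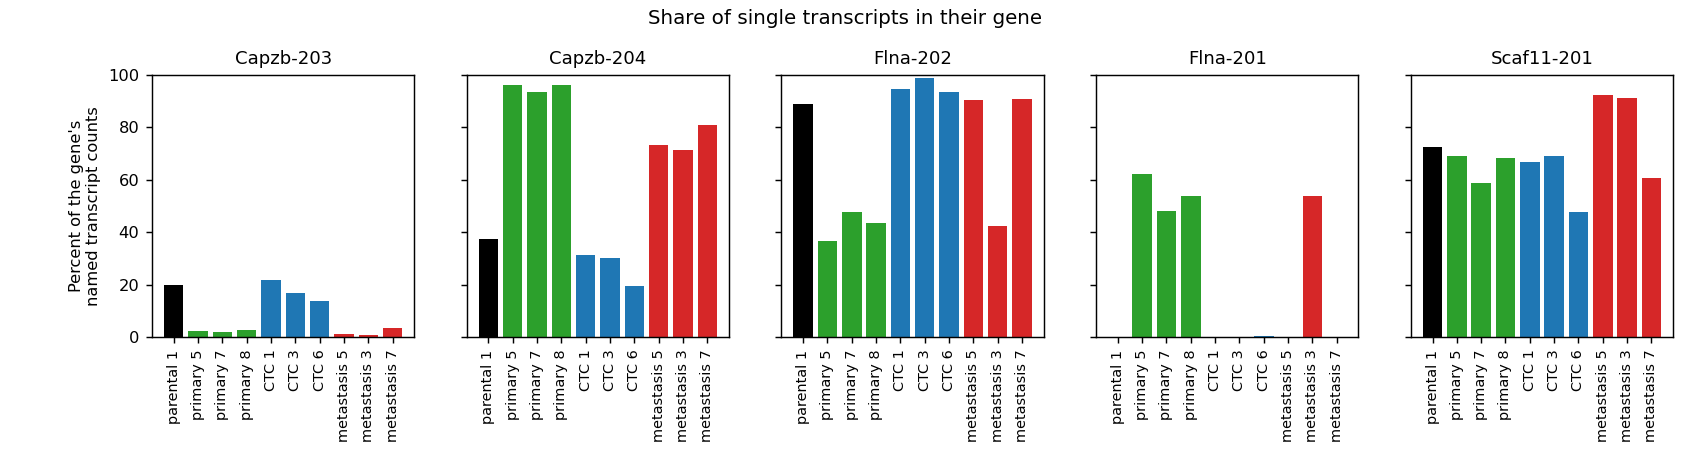
Share of a gene's named transcript counts taken by single transcripts of Capzb, Scaf11 and Flna in each of the 10 libraries, in percent, coloured by group. Capzb-204 takes 19.3% to 31.4% in the CTC lines and 71.2% to 81.0% in the metastasis lines, and Flna-201 appears in the primary lines and metastasis 3.

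The primary lines show which of the 2 groups stands apart for a gene. Among genes with a mean log2 CPM of at least 1 whose CTC and metastasis lines did not overlap, 399 were higher and 521 lower in the metastasis lines. Of the 399, all 3 primary lines were on the CTC side for 172 and on the metastasis side for 55. Of the 521, they were on the CTC side for 274 and on the metastasis side for 38. The remaining genes had primary lines between or across the groups. By level, Pelo is near the CTC side and Rn7sk near the metastasis side, as given above. The primary lines took no part in choosing these genes beyond the shared fit.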

How the data were processed

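RNA-seq of 10 cell lines was analysed, with 1 library per line. Per the submitters' processing notes, HISAT2 2.1.0, StringTie 2.0.3 and DESeq2 1.26.0 were used with the GRCm38 genome. Which annotation release they used: not given in the sources used here. The authors deposited tables of estimated counts per gene and per transcript, which were used as whole numbers; whether counting used strand is not stated. Entries that StringTie assembled without a gene name (19.7% to 22.8% of counts) were left out, and 19936 named genes passed the filter on low counts. Reads of a named gene counted under such entries would lower its level in a line, for Xpo1, Pgk1 and Ube2c as for Pelo. This was not tested.

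Counts were scaled by TMM and fitted over all 10 libraries in 4 groups with edgeR 4.0.16 (R 4.3.3), using the quasi-likelihood test of metastasis against CTC lines with Benjamini-Hochberg adjustment over all genes, at 0.05. The common biological coefficient of variation was 0.606. Scripts were tested on simulated data. DESeq2 1.42.0 and limma 3.58.1 gave alternatives. Names and positions came from GENCODE M21, in which 19891 tested genes have 1 position. Columns were matched to samples by the labels.

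Named genes were those called, the 15 of smallest p in each direction with groups that do not overlap and a mean log2 CPM of at least 1, up to 5 members per list, the 5 most abundant per direction at an unadjusted p under 0.05, the 5 transcripts of smallest p per direction, and the 5 genes most like the called one. Some genes that meet this rule are not reported here. Members and lists were chosen with earlier results of these data known. Deviations of same-number lines from their group means correlated at r = 0.319, 0.12 and 0.406 for the 3 such pairs. The median for other pairs was -0.0493. However, CTC 6 had r = 0.506 with metastasis 7 and 0.43 with primary 8, above all 3 same-number pairs. Primary 8 with metastasis 7 (0.274) and primary 5 with CTC 3 (0.222) were among other pairs above 0.12. The meaning of the numbers is not given in the labels, and 1 number is shared between CTC and metastasis lines.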

Additional observations from a re-analysis of the deposited data

How the results depend on the processing

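Among 20 alternatives, the count of 1 called gene became 28 with DESeq2 and 0 with no filter on low counts, with only the 6 CTC and metastasis libraries, with assembled entries included and with the number as a fixed replicate block; leaving out 1 line gave 0 to 1, where the 1 (without CTC 3) was Rpl36a-ps2. The block as a random term left 1 call. The 656 genes at an unadjusted p under 0.05 became 1330 with assembled entries, 347 with the fixed block, 803 with the random block and 370 to 1015 with 1 line left out. With library totals alone 63.2% of such genes were higher in the metastasis lines, against 48.6%, and the median of all genes moved by 0.085 on the log2 scale. Pelo kept its direction in all of them, with an adjusted p of 0.0731 with no filter, 0.310 with the 6 libraries alone, 0.276 with assembled entries and 1 with the fixed block. DESeq2 also called the named genes Scaf11, B4galnt4, mt-Atp6, Porcn, Pced1b, Slc45a4, S100a6, Kifc5b and Rn7sk, and among other list members Bgn, Timp3, Hist4h4, Hist1h2ak, Hist1h4d and Hist1h3h. The transcripts at an unadjusted p under 0.05 became 1664 with a minimum count of 50. Signs turned for Ube2c (-0.43 without CTC 3, -0.26 without CTC 6, -0.45 without metastasis 3, up to 2.12 without CTC 1), for H2-D1 (-0.02 with the fixed block, -0.38 without metastasis 5, up to 3.33 without metastasis 3), for Cdh1 (-0.02 with the fixed block, -0.37 without metastasis 7, up to 1.16 without metastasis 3) and for Pdgfra (-0.18 with the fixed block, -0.12 without metastasis 5, up to 1.72 without CTC 3), all log2 differences that did not pass. The smaller test with 6 libraries or 1 line fewer has fewer samples, and the fixed block leaves 1 residual degree of freedom; other causes were not tested. Total counts overlapped between the groups.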

Other observations

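Over all genes, 4.43% had every metastasis line above every CTC line and 3.85% every one below. Of 40 small nuclear RNA genes tested, 15 had every metastasis line below every CTC line and 0 the reverse, with a median log2 change of -1.15. Of 966 antisense genes, 72 were above and 20 below, and of 1712 processed pseudogenes 49 were above and 99 below. By chromosome, the lowest median among the numbered chromosomes was that of chromosome 12 at -0.198, where 27.4% of the genes were higher. As a deviation from the mean of the 6 lines, the median by line was 0.153, 0.274 and -0.062 in CTC 1, 3 and 6 and -0.362, 0.247 and -0.13 in metastasis 5, 3 and 7, so the groups overlap and metastasis 5 is the lowest. These classes were looked at after the values were seen, and no test was made.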
